A study of Mus musculus with 6 samples.

Results

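The Trim5, Trim12, Trim30 and Trim34 genes lie side by side on mouse chromosome 7, where repeated duplication left a run of closely related copies. The 7 genes described here are Trim6, Trim34a, Trim5, Trim12a, Trim12c, Trim30a and Trim30d. They were taken as every probe set whose platform annotation gives exactly 1 of these symbols, and came to 13 of the 45037 probe sets tested and to 7 of the 18194 genes with a probe set of a single symbol. The cluster was selected on these arrays because several of its genes were lower in KO, so the KO minus WT values of its members are a description and carry no test.

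The study asked what loss of Wwox does to expression in mammary epithelium. RNA of mammary epithelial organoids, the duct and alveolus fragments that remain when a gland is digested, was hybridised to Affymetrix whole-genome mouse arrays, 1 array for each of 6 mice of 8 weeks. The WT group (WT1, WT2, WT3) was BK5-cre -; WWOX flox/flox and the KO group (KO5, KO6, KO7) was BK5-cre +; WWOX flox/flox, so both carried the floxed gene and only KO carried Cre. All mice were of mixed (129/J; C57BL/6) background, and the labels do not say which strain's alleles any mouse had at the cluster. Cre was driven by the bovine keratin 5 promoter, which is active from fetal life in epithelial precursors of many epithelia, and any effect of Cre itself cannot be told apart from that of the Wwox deletion in these groups.

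TRIM proteins are built of a RING domain that makes them ubiquitin ligases, a B-box and a coiled coil, and most end in a B30.2 domain that binds the target. In primates TRIM5 blocks incoming retroviruses by binding their capsid, and the mouse Trim5, Trim12 and Trim30 genes are its rodent relatives. Many TRIM genes are switched on by interferon, through factors that bind interferon response elements beside the gene's start.

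The promoters of the cluster are shown because 6 of its 7 genes share a single short motif that the choice of genes did not use. RefSeq promoter windows, each of 250 bases before and 50 bases after an annotated start on the GRCm38.p6 build, were found for 7 of 7 genes, and there were 8 of them since Trim30a has 2 starts. The core of the interferon response element, GAAANNGAA searched on both strands, was found 1 time in 7 of the 8 windows and not in that of Trim6. The match lies at the following stretches of chromosome 7, written 5′ to 3′ along each gene, with the core, here read on its other strand, in capitals.
Trim34a, chr7:104244458-104244486, plus strand: ggtttggagtTTCAGTTTCttttctctgc
Trim5, chr7:104288136-104288164, minus strand: gagttgtggtTTCTGTTTCatttccagag
Trim12a, chr7:104315466-104315494, minus strand: gagttgtggtTTCTGTTTCatttccagag
Trim12c, chr7:104353359-104353387, minus strand: gagttgtggtTTCTGTTTCatttccagct
Trim30a, downstream start, chr7:104446104-104446132, minus strand: tgtttttagtTTCTTTTTCtcagttcctg
Trim30a, upstream start, chr7:104465210-104465238, minus strand: gttctttagtTTCTTTTTCtcagttcctg
Trim30d, chr7:104507871-104507899, minus strand: gttctttagtTTCTTTTTCtcagttcctg

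Trim5 and Trim12a had the same 29 bases, as did the upstream start of Trim30a and Trim30d. The match sat near the annotated start in every window that held it, from -48 to -40 in Trim5 at the upstream end to 11 to 19 in Trim34a and Trim12a at the downstream end, with the start base at 0. The same core was found in 8.56% of all 32851 RefSeq windows. Counted by gene it was found in 9.76% of 27025 genes, in 45.7% of the 46 interferon-induced genes of the list described later that had a window, in 12.5% of 40 other Trim genes and in 9.52% of 21 neighbours of the cluster. The cluster's genes are copies of each other, so the shared match is not 6 separate observations. Over the bases before the start, the upstream Trim30a window and that of Trim30d were identical at 89% of aligned positions, and those of Trim5 and Trim12c at 81.5%. These were the highest values of all pairs of windows. Identity was 48.3% to 51.7% between Trim34a and every other window, and 48.2% to 51% between Trim6 and every other window. Between the Trim30 windows and those of Trim5, Trim12a and Trim12c it was 47.6% to 55.1%. A shorter motif that interferon regulatory factors bind, AANNGAAA on both strands, which overlaps the core, was found 3 times each in Trim34a, Trim5, Trim12a and Trim12c, 2 times in each Trim30a window and in Trim30d, and not in Trim6; 23.9% of all windows held it. The gamma-activated site TTCNNNGAA was in none of the 8 windows and in 8.3% of all windows. These are matches of letters, not measured binding sites.

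**Figure D1:**
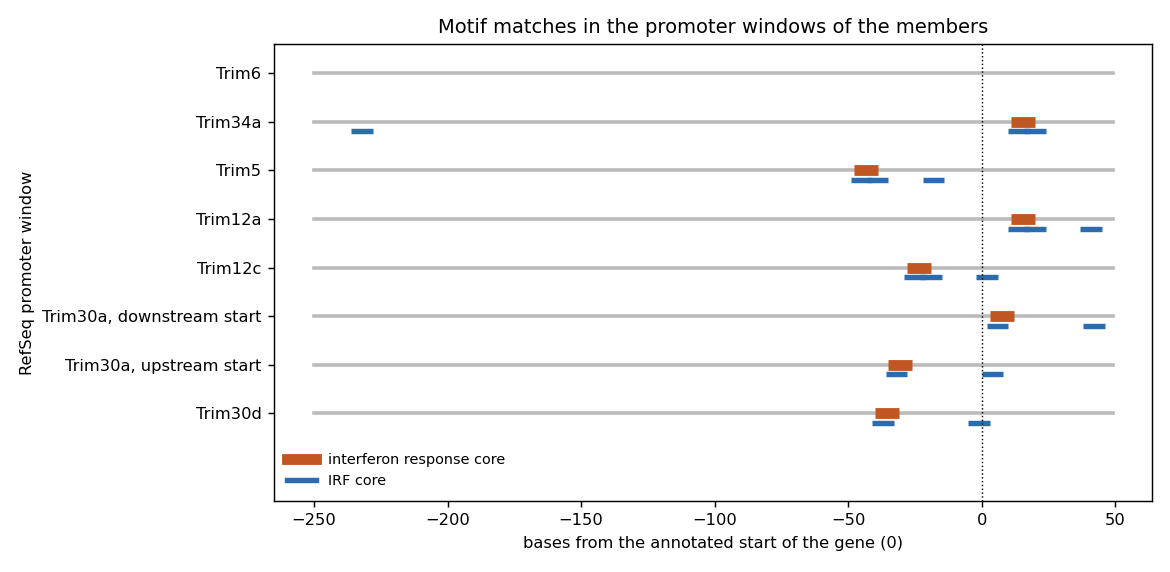
Positions of motif matches in the 8 RefSeq promoter windows of the cluster's genes, in bases from the annotated start at 0; orange bars are the interferon response core and blue bars the IRF core. The core lies near the start in every window except that of Trim6, which holds neither motif.

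Of the 13 probe sets, 9 were lower and 4 higher in KO, with differences on the log2 scale from -2.11 to 0.82 and a median of -0.29, against a median of -0.03 over all probe sets tested. In 7 of them every KO array lay below every WT array, in 1 every KO array lay above, and in 5 the groups overlapped. Over all probe sets every KO array lay below every WT array in 13.6% and above in 10.7%. The limits of the study, an unadjusted p under 0.01 in limma and a change of at least 2-fold, were passed by 3 of the 13 probe sets, 1 each of Trim34a, Trim30d and Trim12a and all lower in KO, against 0.300% of all probe sets called lower and 1.69% called higher. Nothing is read from these counts, because lower values in KO were what the cluster was chosen by. Only 4 of the 13 probe sets had a mean log2 value of at least 6, and the 3 past the limits were not among them. Whether their dim KO values stood above the array background was not examined here, so their folds are not ranked.

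Trim34a, an interferon-induced member whose human counterpart acts with TRIM5 against retroviruses, differed between the groups at probe set 1424857_a_at. Its log2 values were 6.28, 6.61 and 6.33 in WT1, WT2 and WT3, and 4.09, 4.38 and 4.42 in KO5, KO6 and KO7. All 3 KO arrays were far below all 3 WT arrays, with a gap of 1.86 between the groups. The WT mean was 6.41 ± 0.18 (SD, n = 3) and the KO mean 4.30 ± 0.18 (SD, n = 3), a difference of -2.11 or 4.32-fold lower in KO. The other Trim34a probe set, 1426093_at, did not share this: it read 3.50, 3.73 and 3.96 in WT and 4.32, 4.22 and 3.92 in KO, so that the groups overlapped, with a difference of 0.43.

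Trim30d, which in mouse restricts tick-borne flaviviruses, gave a similar picture at probe set 1435665_at. The WT arrays read 5.86, 6.29 and 5.88 and the KO arrays 3.85, 4.19 and 4.09. No KO array came within 1.68 of any WT array. The WT mean was 6.01 ± 0.24 (SD, n = 3) and the KO mean 4.04 ± 0.17 (SD, n = 3), 3.92-fold lower. Its second probe set, 1438716_at, was also lower on every KO array, at 4.12, 4.12 and 4.19 in WT and 3.60, 3.50 and 3.85 in KO, but only by 1.41-fold.

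Trim12a, a relative of Trim5 that lacks the B30.2 domain, was the most variable of these genes. At probe set 1437432_a_at the WT arrays read 5.39, 4.38 and 5.10 and the KO arrays 3.19, 2.89 and 2.91. WT2 was the lowest of the WT arrays and still lay 1.19 above the highest KO array. The WT mean was 4.96 ± 0.52 (SD, n = 3) and the KO mean 2.997 ± 0.17 (SD, n = 3), 3.90-fold lower. At the other Trim12a probe set, 1420648_at, the groups overlapped, with 3.93, 3.91 and 4.04 in WT, 4.06, 3.92 and 3.97 in KO and a difference of 0.02.

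Trim30a, which in mouse restrains Toll-like receptor signalling by sending the TAK1 adaptors TAB2 and TAB3 for degradation, was lower in KO at both probe sets. At 1417961_a_at it read 7.77, 7.69 and 7.46 in WT and 6.57, 6.76 and 6.82 in KO. The lowest WT array and the highest KO array were 0.64 apart. The difference of -0.92, from 7.64 ± 0.16 (SD, n = 3) to 6.72 ± 0.13 (SD, n = 3), was 1.89-fold and so just outside the 2-fold limit, which the 3 probe sets above passed with at least 3.90-fold. The other probe set, 1451860_a_at, read 7.08, 6.98 and 7.18 in WT and 6.78, 6.69 and 6.80 in KO, 1.25-fold lower.

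The remaining genes differed little or the other way. Trim5, measured by the single dim probe set 1442693_at, read 3.26, 3.29 and 3.21 in WT and 2.99, 3.03 and 3.06 in KO. The groups were apart, yet by only 1.17-fold. Trim12c, a ubiquitin ligase that in mouse cooperates with TRAF6 in interferon and NF-κB signalling, overlapped between the groups at both probe sets. It read 6.71, 6.87 and 6.95 in WT and 6.83, 6.73 and 6.73 in KO at 1443858_at, a difference of -0.08. At 1445271_at it read 3.69, 3.47 and 3.87 in WT and 3.35, 3.35 and 3.48 in KO, a difference of -0.29.

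Trim6, whose human counterpart makes free ubiquitin chains that activate IKKε in the interferon response, was the only gene of the 7 with a probe set on which every KO array was higher. Probe set 1453624_at read 3.79, 3.94 and 3.71 in WT and 4.88, 4.47 and 4.56 in KO, 1.77-fold higher. At 1424448_at the KO values of 6.09, 6.17 and 6.46 overlapped those of WT, 5.78, 5.79 and 6.11, with a difference of 0.34. Trim6 was the gene of the 7 with no motif match and had both probe sets higher in KO by sign. Genes with the core ranged from -2.11 for Trim34a to -0.08 for Trim12c at their brightest probe sets. The other probe sets of Trim34a and Trim12a differed by 0.43 and 0.02. With 7 related genes chosen by these values, nothing is read from the motif beside the differences.

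**Figure D2:**
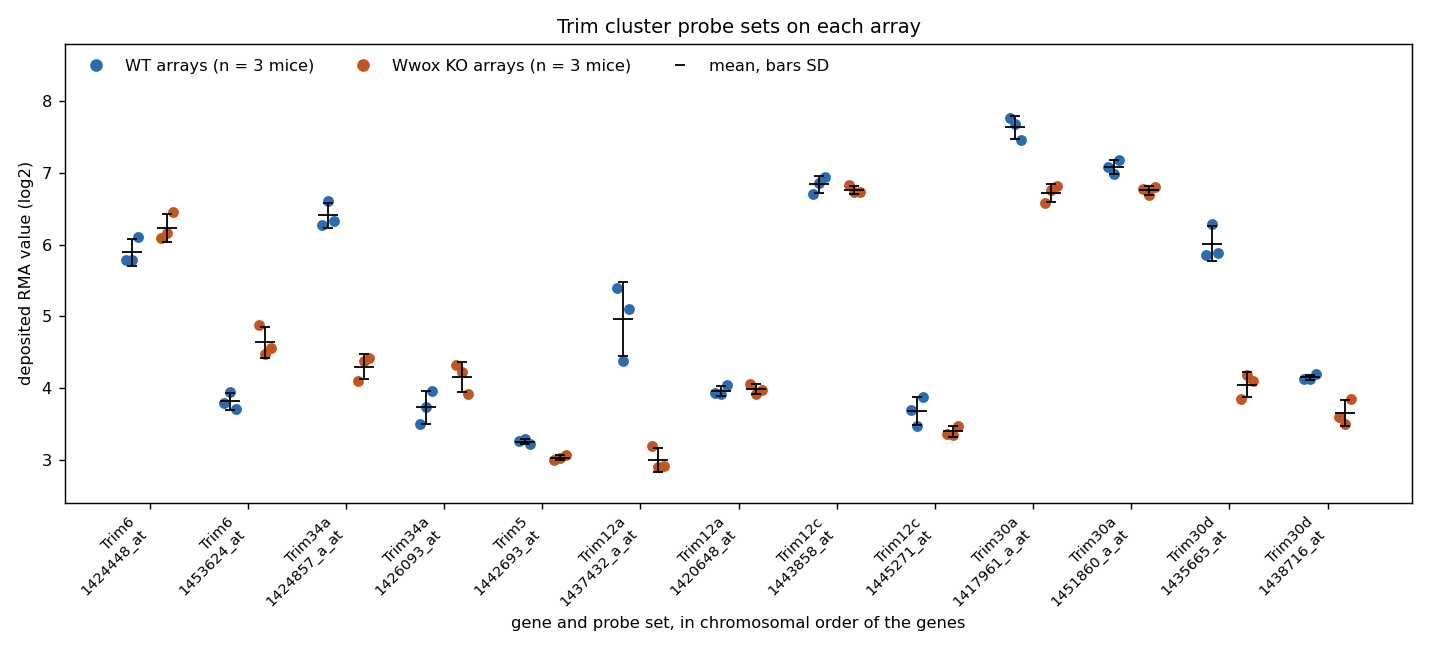
Deposited RMA values (log2) of the 13 cluster probe sets on the 3 WT arrays (blue) and the 3 Wwox KO arrays (orange), 1 point per mouse, with the mean and SD of each group, in chromosomal order. The groups stand far apart at 1 probe set each of Trim34a, Trim12a and Trim30d, less so at Trim30a, and the other way at 1 probe set of Trim6.

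Probe sets of the same gene therefore did not always move together. The KO minus WT value of the brighter probe set less that of the dimmer was -2.54 on the log2 scale for Trim34a, -1.99 for Trim12a, -1.47 for Trim30d and -0.60 for Trim30a. Where each probe set lies on its transcript was not examined here. The copies are also alike enough that probes can detect more than 1 of them. The array holds 3 further probe sets annotated to a pair of these genes, which are counted under neither. The probe set shared by Trim30a and Trim30d, 1456494_a_at, was lower on every KO array, by 0.78, and those shared by Trim34a and Trim34b overlapped between the groups, at -0.15 for 1421550_a_at and 0.27 for 1426092_a_at. Trim34b, Trim30b and Trim30c, which also lie within the cluster, had no probe set of their own.

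In order along the chromosome, the KO minus WT differences of the brightest probe sets were 0.34 for Trim6, -2.11 for Trim34a, -0.23 for Trim5, -1.96 for Trim12a, -0.08 for Trim12c, -0.92 for Trim30a and -1.97 for Trim30d. This order depends on the probe set taken, since the other probe sets of Trim34a and Trim12a differed by 0.43 and 0.02, and the only one of Trim5 was dim in both groups. Outside the cluster, of the 30 nearest measured genes, 15 on each side, 0 were called in limma, with 2 lower and 4 higher at an unadjusted p under 0.05 and a median of -0.04. Over all genes, taken by their brightest probe set, 0.462% were called lower and 0.517% higher, and 13.0% were lower and 6.17% higher at an unadjusted p under 0.05. The nearest measured gene on the Trim6 side, the ubiquilin-like gene Ubqlnl, differed by -0.26 (SE 0.11, limma adjusted p = 0.272), and the nearest on the Trim30d side, the odorant receptor gene Olfr658, by -0.06 (SE 0.14, limma adjusted p = 0.849). At their brightest probe sets the neighbours ranged from Trim21 at -0.87 to Olfr78 at 0.83, a range noted after the values were seen. Other probe sets of these genes differed less, at 0.11 for Trim21 and from 0.10 to 0.28 for Olfr78.

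**Figure D3:**
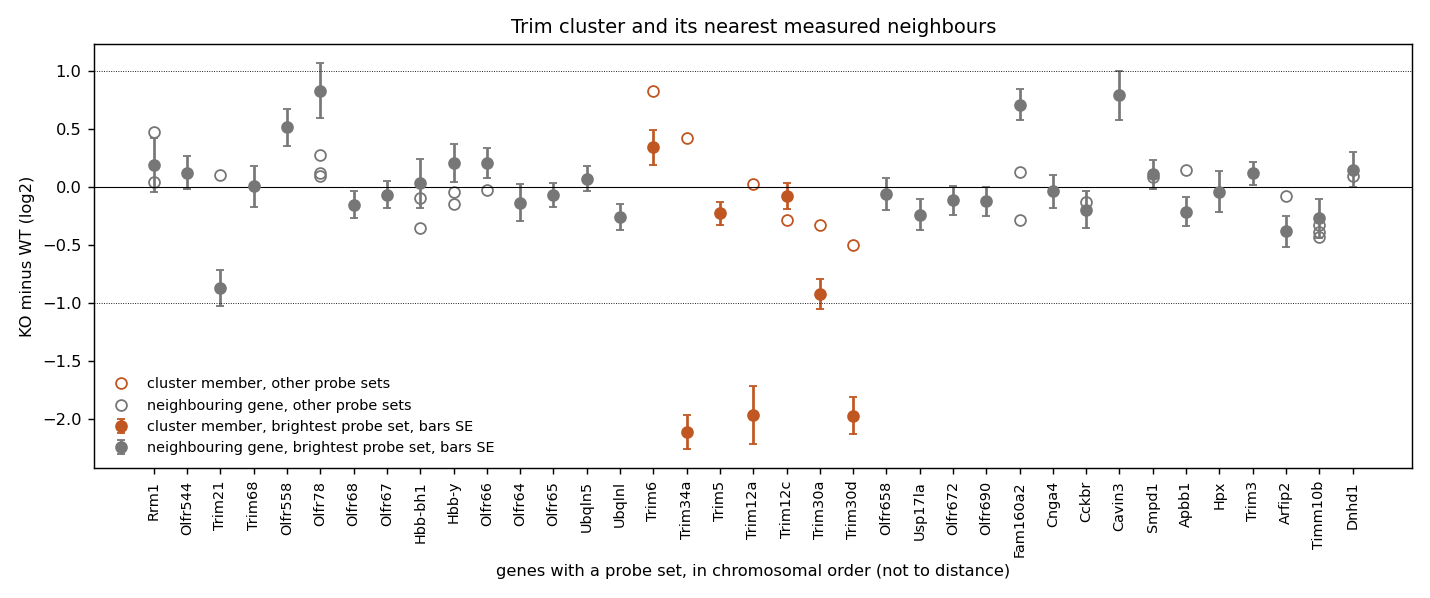
KO minus WT difference (log2) of the cluster's genes (orange) and of the 15 nearest measured genes on each side (grey), in chromosomal order and not to distance; filled points are the brightest probe set of a gene with its SE, open points its other probe sets. The brightest probe sets of Trim34a, Trim12a and Trim30d lie near -2, while their other probe sets do not reach -1. No neighbour passes -1 or 1.

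The wider Trim family was counted in the same way. Of 51 other Trim genes, 0 were called in limma, and their median was -0.05, close to the -0.06 of all genes. At an unadjusted p under 0.05, 10 were lower and 2 higher, against 13.0% and 6.17% of all genes. In 11 every KO array lay below every WT array and in 2 above, against 16.1% and 7.19% of all genes. The smallest p-values belonged to Trim21, a cytosolic antibody receptor, at -0.87 (SE 0.15, limma adjusted p = 0.0602), to Trim7 at -0.87 (limma adjusted p = 0.0655) and to Trim37, a peroxisomal ubiquitin ligase, at -0.64 (limma adjusted p = 0.091). Whether the cluster differed from the other Trim genes was not tested, since its genes had been chosen for their difference.

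Of 57 interferon-induced genes measured, 2 were called lower in limma and 0 higher, against 0.462% and 0.517% of all genes. At an unadjusted p under 0.05, 13 were lower and 3 higher, against 13.0% and 6.17% of all genes. The median of the list was -0.06, that of all genes. In 14 of the 57 every KO array lay below every WT array and in 3 above, against 16.1% and 7.19% of all genes. The mean log2 level of the list was 8.16, 8.26 and 8.30 in WT and 8.03, 8.10 and 8.09 in KO, lower on every KO array (two-sided exact permutation test, p = 0.1, the lowest possible here, and 0.278 adjusted over 25 array measures). Ifi47, an interferon-induced GTPase, read 9.58, 9.93 and 9.68 in WT and 8.70, 8.85 and 8.55 in KO, a fall of 1.03 (SE 0.14, limma adjusted p = 0.0492). Ifi202b, a DNA-binding protein of the p200 family, read 9.36, 9.68 and 9.06 in WT and 7.64, 5.25 and 7.15 in KO, with a difference of -2.69 (SE 0.56, limma adjusted p = 0.0753). For both genes every KO array lay below every WT array, but with a wide spread within KO for Ifi202b. Ifi47 lost its call with cyclic loess (-0.98), with the RNA quality covariate (-0.74), without WT2 (-0.93) and without KO7 (-0.96), and Ifi202b lost it with that covariate (-2.63).

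Of 24 genes of interferon production and signalling, 0 were called in limma, with a median of -0.08. At an unadjusted p under 0.05, 3 were lower and 1 higher, against 13.0% and 6.17% of all genes. The receptor kinase Tyk2 differed by 0.50 (limma adjusted p = 0.0902), the type II interferon Ifng by -0.78 (limma adjusted p = 0.168) and the phosphatase Ptpn2 by -0.34 (limma adjusted p = 0.182). Trim30a and Trim5 proteins act in TAK1, NF-κB and inflammasome signalling. Of 29 genes of these pathways, 0 were called in limma, with a median of -0.25. At an unadjusted p under 0.05, 10 were lower and 0 higher, against 13.0% and 6.17% of all genes. In 11 every KO array lay below every WT array and in 1 above, against 16.1% and 7.19% of all genes. The mean log2 level of the list was 8.851, 8.915 and 8.757 in WT and 8.56, 8.587 and 8.582 in KO (two-sided exact permutation test, p = 0.1, and 0.278 adjusted over all array measures). The summed linear levels of the list overlapped between the groups. In this list the smallest p-values were those of the inflammasome protease Casp1 at -0.76 (limma adjusted p = 0.0759) and the receptor Tlr2 at -0.86 (limma adjusted p = 0.0827). The ubiquitin ligase Traf6 came next at -0.67 (limma adjusted p = 0.0924).

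**Figure D4:**
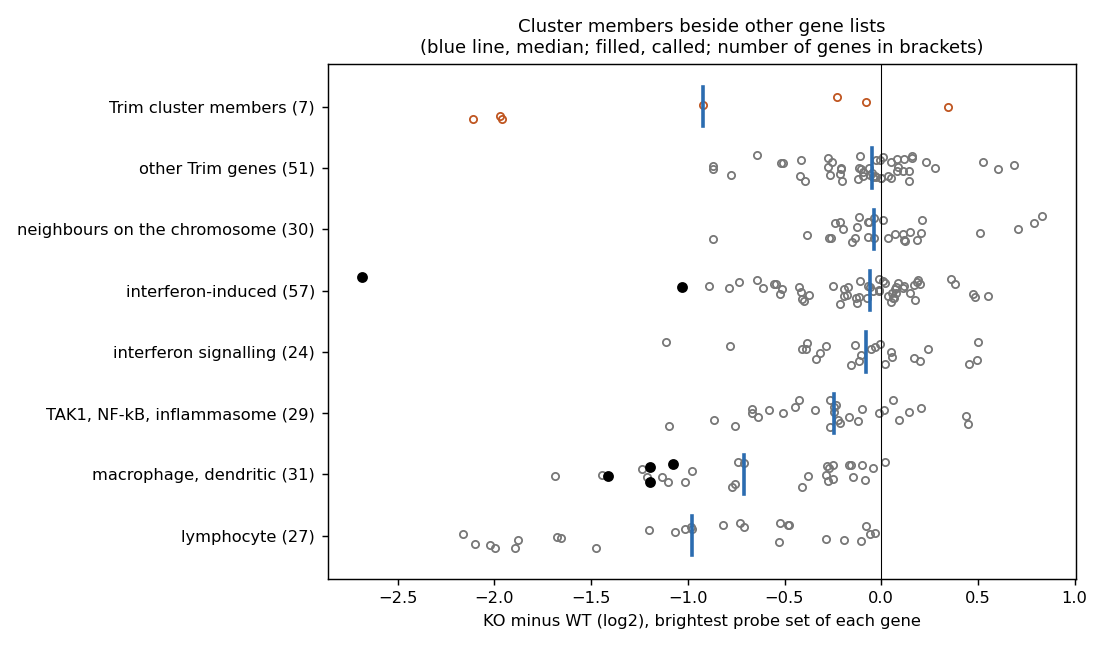
KO minus WT difference (log2) of the brightest probe set of each gene in the cluster (orange) and in 7 other lists; the blue line is the list's median, filled points are called genes, and the cluster's points are all open because they were not tested. The lists of Trim genes, neighbours and interferon genes have medians near 0. The TAK1, NF-κB and inflammasome list has a median of -0.25, and the macrophage and lymphocyte lists lie lower still.

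Some properties of the arrays differed between the groups along with these genes. Wwox itself was lower in KO at its brightest probe set, 1416334_at, from 7.71 to 6.02, a difference of -1.69 (SE 0.13). Its other probe sets differed by -1.04 at 1438517_at, by -0.44 at 1431960_at, where the groups overlapped, and by -0.24 at 1431942_at. The 3′ minus 5′ difference of Gapdh, a measure of RNA quality, was 0.95, 2.41 and 1.79 in WT and 0.40, 0.56 and 0.46 in KO. A two-sided exact permutation test gave p = 0.1, the lowest value possible with 3 against 3, and 0.278 adjusted over the 25 array measures. With this difference, averaged with that of β-actin, as a covariate, the values were -1.85 for Trim34a, -1.64 for Trim30d, -2.78 for Trim12a and -1.06 for Trim30a at their brightest probe sets. The covariate itself, at 0.96 to 2.13 in WT and 0.54 to 0.60 in KO, did not overlap between the groups, so that RNA quality and genotype cannot be told apart here.

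Members of the cluster are expressed in immune cells, and immune markers were lower in KO by sign. Of 27 lymphocyte genes 27 were lower by sign, with 0 called in limma. At an unadjusted p under 0.05, 3 were lower, against 13.0% of all genes. The median of the list was -0.98, and it was -0.24 without WT1, -1.65 without WT3 and -2.61 with the covariate. The smallest p-values of the list were those of the granzymes Gzmb at -0.99 and Gzma at -0.71, and of Cd52 at -1.68 (limma adjusted p = 0.0675, 0.0757 and 0.243). Of 31 macrophage and dendritic cell genes 30 were lower by sign, and 9 were lower at an unadjusted p under 0.05, against 13.0% of all genes. Past the limits were 4, against 0.462% of all genes called lower. They were Fcgr3, C1qb, Aif1 and Tyrobp (limma adjusted p = 0.057, 0.0887, 0.0941 and 0.126). The median of this list was -0.71, and it was -0.31 without WT1 and -1.06 without WT3. Each of the 4 lost its call with the covariate and without WT2, and Tyrobp also with quantile normalization and with cyclic loess. With other arrays left out, Aif1 lost it without WT1, KO5, KO6 or KO7, Tyrobp without WT1, KO5 or KO7, C1qb without KO5 and Fcgr3 without KO7. The summed linear level of the lymphocyte genes was 15330, 7827 and 2833 in WT and 2431, 5436 and 2108 in KO, and that of the macrophage and dendritic cell genes 29530, 25600 and 10140 in WT and 8566, 17120 and 10520 in KO. For both lists the sums overlapped between the groups. Fewer cells of a type and less RNA per cell cannot be told apart in such bulk samples. Luminal epithelial genes, which mark the labelled tissue, had a mean log2 level of 12.0 in both groups with 0 of 19 called in limma and 2 at an unadjusted p under 0.05; the smallest p-values were those of Pgr at 0.61, Wfdc18 at -0.42 and Ehf at -0.68. Of 15 endothelial genes 14 were higher by sign and 8 at an unadjusted p under 0.05, with a median of 0.63. In 7 of them every KO array lay above every WT array, and 3 were called, Cldn5 (1.24), Flt1 (1.07) and Tie1 (1.16). Of 16 fibroblast genes 12 were higher by sign and 5 at an unadjusted p under 0.05, with a median of 0.305. The 2 called were Col1a1 (1.43) and Pi16 (1.81). Over all genes 0.517% were called higher, 6.17% were higher at that p and 7.19% had every KO array above every WT array. With the covariate Flt1 (0.91), Tie1 (0.18) and Pi16 (2.05) were no longer called. Flt1 also lost its call without WT3, Tie1 without WT2, WT3, KO5 or KO6, and Pi16 without WT2 or KO5. Of 14 basal epithelial genes, with Myh11 at 0.33, Oxtr at -0.24 and Lgr6 at -0.26, and of 6 erythroid genes, with Hbb-b2 at 0.34, Epb42 at -0.10 and Hba-a1 at -0.08, 0 were called in limma, and 0 and 1 had an unadjusted p under 0.05. The part of these cells in the values of the cluster was not tested.

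Under the alternatives, the values of the probe sets of Trim34a, Trim30d and Trim12a that passed the limits ranged from -2.18 to -1.85 for Trim34a, from -2.06 to -1.64 for Trim30d and from -2.78 to -1.75 for Trim12a. Trim30a at 1417961_a_at ranged from -1.06 with the covariate to -0.85, and was -1.01 without WT3, both of these past the limits. The higher values of Trim6 at 1453624_at ranged from 0.70 to 0.91. Since the genes were chosen for this contrast, these ranges are a description too.

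**Figure D5:**
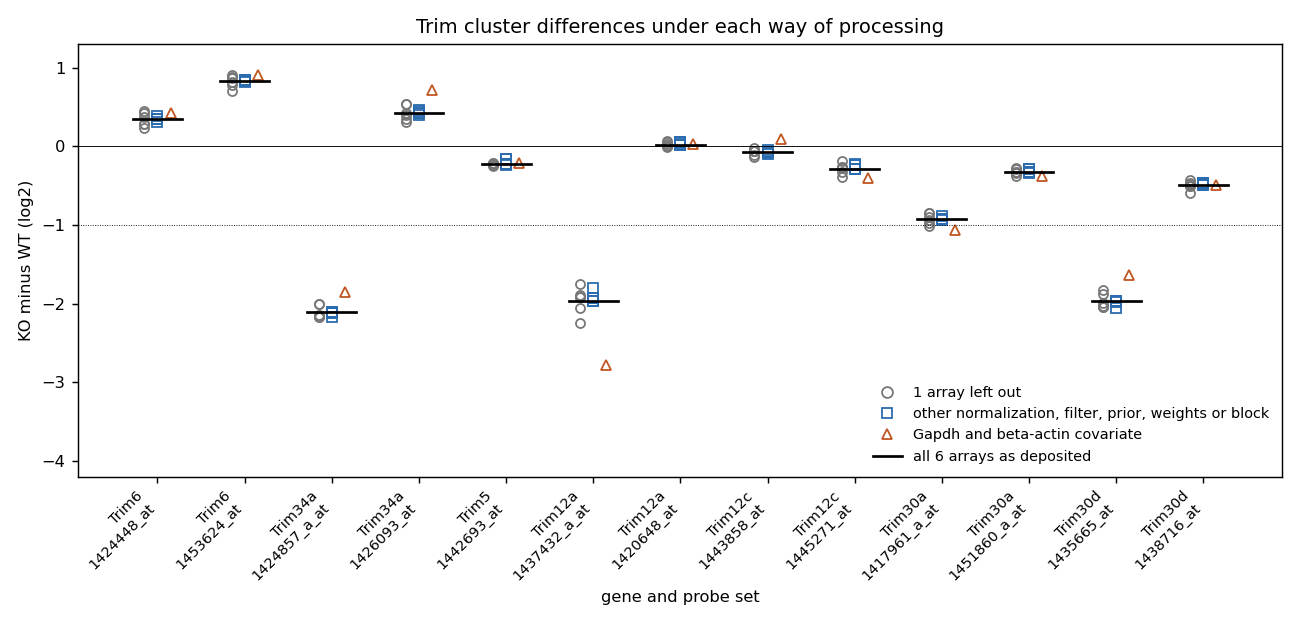
KO minus WT difference (log2) of each cluster probe set with all 6 arrays as deposited (black line), with 1 array left out (circles), with another normalization, filter, prior, weighting or block (squares) and with the RNA quality covariate (triangles). The brightest probe sets of Trim34a, Trim12a and Trim30d stay beyond -1, the dotted line, in every setting shown. The other probe set of each of these genes does not reach -1 in any.

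The 5 genes outside the cluster whose pattern over the 6 arrays was most like that of Trim34a at 1424857_a_at, out of 10739 candidates with a mean log2 value of at least 6, were Vps4b (Pearson r = 0.997), Acpp (0.996), Dnajc8 (0.995), Sub1 (0.995) and Haus3 (0.994). Since they were picked by likeness to a probe set whose groups lay far apart, their lower values on every KO array follow from the choice. The differences were -0.42 for Vps4b, an ATPase that recycles membrane-remodelling complexes, and -1.84 for the acid phosphatase Acpp. Dnajc8 differed by -0.57, Sub1 by -0.63 and Haus3 by -0.53. The 6 points share their division into WT and KO.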

How the data were processed

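Organoid RNA of 3 WT and 3 KO mice was hybridised to Affymetrix arrays, 1 per mouse. The deposited log2 values are the output of RMA as run by the authors, that is background correction, quantile normalization and a summary of each probe set (its version is not given in the sources used here). Their methods name simpleaffy and limma. The 45037 probe sets left without the controls divide into 34945 with a single gene symbol, which alone named genes, 932 with several and 9160 with none. KO minus WT was fitted to all of them with lmFit and eBayes of limma 3.58.1 under R 4.3.3, without covariates, and p-values were adjusted over the whole table (Benjamini and Hochberg). Called means an unadjusted p under 0.01 and at least 2-fold, the study's limits; lists were counted on the brightest probe set of each gene. The number of arrays limits the precision.

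The members, lists and tests were chosen with earlier results of these data known. Named were every member probe set, up to 5 called genes of a list in each direction or, with none called, 3 by smallest p, the nearest measured neighbours and the 5 most similar patterns. Alternatives were quantile normalization or cyclic loess on top of RMA, a minimum mean log2 value of 6, a trend and robust prior, array weights, the replicate number as a block, a covariate of the Gapdh and β-actin 3′ minus 5′ difference, each array left out, an adjusted p limit of 0.05 and any probe set of a gene. The fit was first tested on simulated data. Promoter windows were from RefSeq, read with Python 3.11.15; identity was from Biopython 1.88 alignments and figures from matplotlib 3.10.9.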

Additional observations from a re-analysis of the deposited data

How the results depend on the processing

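Of the 160 values of cluster probe sets under alternatives, 153 stayed within 1 SD, 7 moved further and no called value changed sign; 2 probe sets near 0 did, Trim12a 1420648_at (-0.015 to 0.061) and Trim12c 1443858_at (-0.14 to 0.09). With a minimum mean log2 value of 6, 4 cluster probe sets remained to be tested and 0 were past the limits, since the 3 that pass are dimmer; leaving out arrays gave 3 to 4. The replicate numbers did not pair the samples (correlations of deviations -0.16, 0.16 and 0.10), and with the replicate block 3 cluster probe sets passed and no count of called genes in a list moved. With the RNA quality covariate 1 other Trim gene (Trim7, -1.10), 1 neighbour (Olfr78, 1.40), 0 interferon-induced genes and 1 interferon signalling gene (Ifng, -1.78) were called. Counting any probe set gave 1 other Trim gene (Trim41, 1.10), 4 interferon-induced genes, adding Rsad2 and Gbp7, and 1 signalling gene (Jak1, 1.61). Cyclic loess and an adjusted p limit of 0.05 each gave 1 interferon-induced gene. With an array left out the counts ran from 0 to 2 for other Trim genes (Trim21 -1.01 and Trim29 1.01 without WT1), 0 to 1 for neighbours (Trim21 without WT1, Olfr78 1.02 without WT3), 1 to 3 for interferon-induced genes (Ifit2 -1.004 added without WT1), 0 to 1 for signalling (Ifnb1 -1.58 without WT1, Ifng -1.03 without WT2) and 0 to 1 for TAK1, NF-κB and inflammasome genes (Tlr2 -1.08 without WT1, Il1b -1.65 without WT3). The cause of these changes was not tested.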
